A study of Mus musculus with 9 samples.

Results

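The immediate early genes described here were *Fos*, *Fosb*, *Jun*, *Junb*, *Egr1*, *Arc*, *Npas4*, *Nr4a1*, *Nr4a2* and *Nr4a3*. They were taken by name, all 10 were present, and they are 10 of the 21457 genes in the matrix of cholinergic spinal cord nuclei. Immediate early genes are switched on within minutes of a stimulus, without new protein synthesis, by transcription factors such as CREB and SRF that calcium and kinase signals activate. In neurons their RNA is widely read as a trace of recent activity, and it can also rise with stress, injury or tissue handling. Most encode transcription factors that act on later genes, whereas *Arc* encodes a protein that works at synapses.

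Nuclei carrying GFP on the nuclear envelope were sorted from spinal cords of 8 week old Chat-IRES-Cre::Sun1-sfGFP mice, with the genotype Chat-iCre:+/wt and SUN-SfGFP:+/wt in every group, so that any cell that had ever used Cre was marked. No stimulus was applied beyond anaesthesia and the removal of the cord, and all groups are untreated. Cords of 12 mice in 3 pools of 4 were each divided into cervical, thoracic and lumbar/sacral cord, which gave 9 libraries: replicate 1 drew on 2 mice of each sex (mixed pool), replicate 2 on males only (male pool) and replicate 3 on females only (female pool). The study sorted 16042 cholinergic nuclei into 3 skeletal (S), 10 visceral (V) and 8 interneuron (I) clusters, and sex cannot be told apart from the pool.

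Libraries held 747 to 2825 nuclei with median totals of 4712 to 16127 corrected counts per nucleus. A total of 33 cell barcodes occurred in more than 1 library. The libraries labelled cervical replicate 2 and thoracic replicate 2 went against their labels: *Hoxa9*, a gene of thoracic and more caudal cord, was at 9.68 CPM (corrected counts scaled to a common total) in the former and 0.507 CPM in the latter, against 0.412 and 0.213 CPM in the other cervical and 9.35 and 9.04 CPM in the other thoracic libraries. No library was reassigned, and comparisons of the cervical with the thoracic level are given with and without both. Pool means and the lumbar/sacral level set against the mean of the other levels hold these libraries either way.

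Levels rest on values read here as SCTransform-corrected counts, which are rounded model values. No file header names the unit, and it was inferred from the values and the study's methods. They were added up per library and cluster or class and given as CPM. The members were sparse. *Nr4a1* had a count in 16.7% of all nuclei and *Jun* in 12.9%, followed by *Npas4* (4.99%), *Junb* (3.77%), *Fos* (2.26%), *Nr4a3* (1.90%), *Egr1* (1.86%) and *Arc* (0.760%). *Fosb* and *Nr4a2* had only 55 and 39 corrected counts in all, so that their levels in single libraries rest on a handful of counts. Set per kilobase of annotated exon, the level over all nuclei ran from 7.49 CPM for *Nr4a1* and 6.56 CPM for *Jun* through 2.30 CPM for *Junb* to 0.0709 CPM for *Fosb*.

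The genes are short and lie apart. In GENCODE vM21 (GRCm38), *Fos* spans chr12:85473890-85477273 (3.38 kb), *Jun* chr4:95049034-95052222 (3.19 kb), *Junb* chr8:84974484-84978718 (4.24 kb), *Arc* chr15:74669083-74672570 (3.49 kb) and *Nr4a1* chr15:101254269-101274795 (20.5 kb). Because *Fos*, *Junb*, *Npas4* and *Nr4a1* moved together in one cluster below, whereas *Jun* did not, the 250 bases before their RefSeq start sites (GRCm38.p6) are shown, 5′ to 3′ on the coding strand, with each TGACG (on either strand) in capitals. TGACG is the core of the CRE, the element that CREB binds.
Fos (chr12:85473640-85473889, plus strand): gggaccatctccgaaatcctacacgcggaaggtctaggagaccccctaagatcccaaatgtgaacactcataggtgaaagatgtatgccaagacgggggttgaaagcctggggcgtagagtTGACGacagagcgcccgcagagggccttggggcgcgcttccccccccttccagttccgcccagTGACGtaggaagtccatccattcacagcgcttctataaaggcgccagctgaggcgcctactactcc
Junb (chr8:84978749-84978998, minus strand): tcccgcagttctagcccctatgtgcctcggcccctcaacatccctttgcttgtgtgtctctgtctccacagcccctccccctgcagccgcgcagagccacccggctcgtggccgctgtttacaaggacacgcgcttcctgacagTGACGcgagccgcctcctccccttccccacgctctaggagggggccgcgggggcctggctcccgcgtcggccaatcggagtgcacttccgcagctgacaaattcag
Npas4 (chr19:4989972-4990221, minus strand): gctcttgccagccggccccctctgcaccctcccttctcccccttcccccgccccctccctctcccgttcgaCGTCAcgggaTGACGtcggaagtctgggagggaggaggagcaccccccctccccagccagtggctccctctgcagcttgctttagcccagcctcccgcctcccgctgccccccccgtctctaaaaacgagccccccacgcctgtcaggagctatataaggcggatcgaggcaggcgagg
Nr4a1 (chr15:101266596-101266845, plus strand): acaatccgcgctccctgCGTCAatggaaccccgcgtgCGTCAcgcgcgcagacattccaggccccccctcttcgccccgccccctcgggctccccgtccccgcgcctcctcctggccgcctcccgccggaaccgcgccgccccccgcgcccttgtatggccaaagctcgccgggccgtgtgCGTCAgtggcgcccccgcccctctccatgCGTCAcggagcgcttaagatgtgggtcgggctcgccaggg
Jun (chr4:95052223-95052472, minus strand): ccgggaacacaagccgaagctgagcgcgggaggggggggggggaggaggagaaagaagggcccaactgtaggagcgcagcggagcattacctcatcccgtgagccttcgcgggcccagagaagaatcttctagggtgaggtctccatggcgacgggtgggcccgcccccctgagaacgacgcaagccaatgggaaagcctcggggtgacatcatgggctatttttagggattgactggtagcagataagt
TGACG was found in 7 of the 8 members with a promoter in this set (all but *Jun*; *Egr1* and *Arc* had no entry) and in 17.8% of all 32851 promoters. *Fos* and *Npas4* held 2 matches each, *Junb* 1 and *Nr4a1* 4. *Nr4a2* held 4 as well but had only 1 count in V8, the cluster meant above, in the lumbar/sacral libraries. *Egr1*, which was high in that cluster, could not be compared. No member held the full CRE TGACGTCA (1.55% of all promoters), the AP-1 element TGANTCA (6.75%) or a CArG box, the SRF element (1.47%), within these bases. Only exact matches were searched for, so near matches, such as TGACATCA in *Jun*, were not counted. TATAAA stood in *Fos*, 33 bases before its start, and in *Nr4a2* (12.4% of all promoters). TGACG lies within TGACGTCA, and a match is a description of the letters only. A link between these letters and the levels in any cluster was not tested.

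The members did not share a single pattern over the 21 clusters, but cluster V8 stood out. V8, a visceral cluster of 467 nuclei of which 463 lay in the 3 lumbar/sacral libraries, had the highest mean level of *Fos*, *Fosb*, *Junb*, *Egr1*, *Npas4*, *Nr4a1* and *Nr4a3* and the second highest of *Arc*, after the interneuron cluster I5. For *Nr4a3* this rank rests on lumbar/sacral replicate 1 (33.0 CPM), since V8 of replicates 2 and 3 (2.58 and 3.096 CPM) lay below the V2 mean of 9.05 CPM. The *Nr4a1* rank rests on that library too (97.0 CPM), since V8 of replicates 2 and 3 (49.1 and 40.2 CPM) lay below the V6 mean of 52.2 CPM. For *Egr1*, V8 of replicate 2 (9.04 CPM) lay below the V6 mean of 10.1 CPM. The V8 means cover 3 libraries, and those of other clusters up to 9. *Jun* ranked the 10th and *Nr4a2* the sixth there. The clusters were drawn by the study from the expression of these same nuclei, so tests between clusters and classes describe the size of a difference beside the spread over libraries and are not independent of the grouping.

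**Figure D1:**
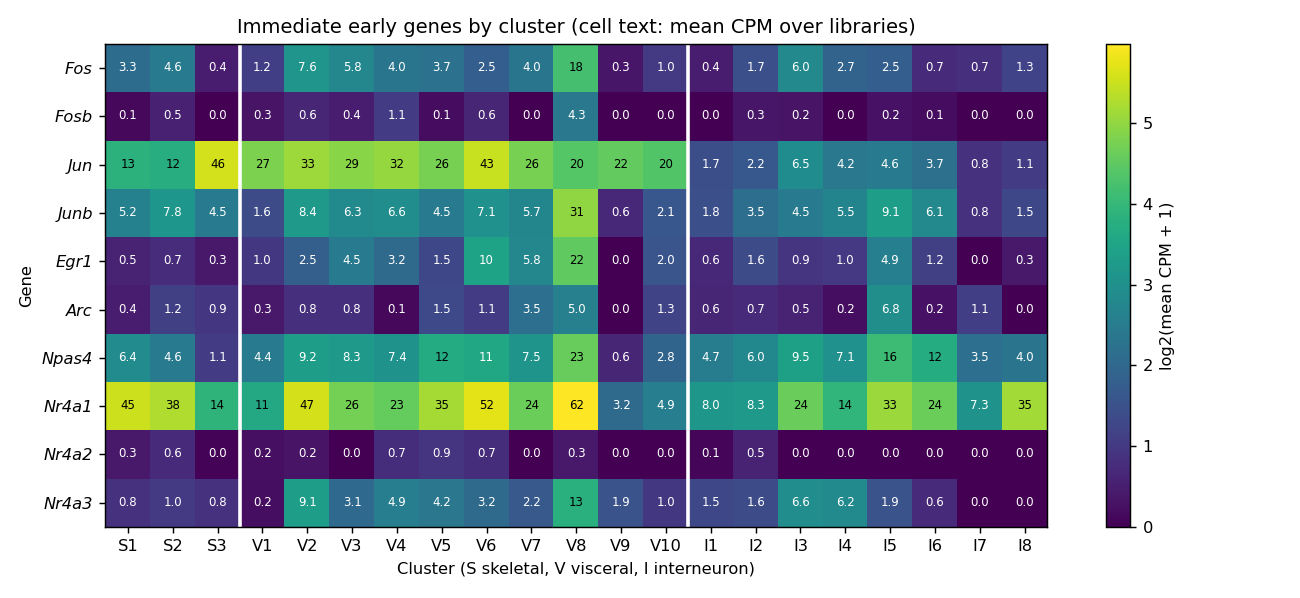
Mean level of each immediate early gene (rows) in each cluster (columns), as CPM averaged over libraries that held 10 or more of its nuclei. Colour shows log2(mean CPM + 1) and the printed number the mean CPM. The V8 column is the brightest for 7 of the 10 genes (for *Nr4a1* and *Nr4a3* through 1 library), while *Jun* is high across S3 and the visceral clusters and low in interneurons.

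Within the lumbar/sacral libraries V8 could be set beside the other visceral nuclei of the same library. *Fos*, which pairs with Jun proteins to form AP-1, was at 14.5, 25.8 and 12.4 CPM in V8 of the mixed, male and female pools and at 1.45, 2.18 and 3.67 CPM in the other visceral nuclei. The V8 values all lay above the others. The mean over the 3 libraries in V8 was 7.23 times that in the others, and the ratios below are also ratios of such means. *Fosb*, a close relative of *Fos*, was at 5.82, 3.87 and 3.096 CPM in V8 and had no count in the 1037 other visceral nuclei or the 2145 skeletal nuclei of these libraries. Against a floor of 3 counts over the pooled other visceral nuclei (0.524 CPM), the pooled V8 level of 4.49 CPM was at least 8.56-fold higher. *Junb*, a Jun family member, was at 24.2, 46.5 and 21.7 CPM in V8 against 3.39, 10.0 and 4.40 CPM, a ratio of means of 5.18 with no overlap.

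*Egr1*, a zinc finger factor, showed the largest of the ratios that can be computed, 10.7 (*Fosb* has only a lower bound), with 44.6, 9.04 and 12.4 CPM in V8 and 3.39, 1.31 and 1.47 CPM in the other visceral nuclei. The mixed pool carried most of that mean. *Npas4*, a factor induced by calcium entry and largely restricted to neurons, was at 29.1, 16.8 and 23.2 CPM in V8 and at 11.1, 5.67 and 6.60 CPM in the others. *Nr4a1*, an orphan nuclear receptor, was at 97.0, 49.1 and 40.2 CPM against 29.998, 23.1 and 12.46 CPM. Ratios were 2.95 for *Npas4* and 2.84 for *Nr4a1*, without overlap in either gene.

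*Arc* reached 1.94, 3.87 and 9.29 CPM in V8 and 1.45, 0 and 0.733 CPM in the others, which rests on 11 and 4 counts. *Nr4a3* was uneven, at 33.0 CPM in V8 of the mixed pool but 2.58 and 3.096 CPM in the male and female pools, where the other visceral nuclei were at 4.80 and 0.733 CPM. *Jun* went its own way. It was at 6.79, 19.4 and 34.1 CPM in V8 and 14.5, 50.2 and 30.8 CPM in the others, so that the groups overlapped and V8 was the higher in 1 of 3 libraries. *Nr4a2* had 1 count in V8.

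**Figure D2:**
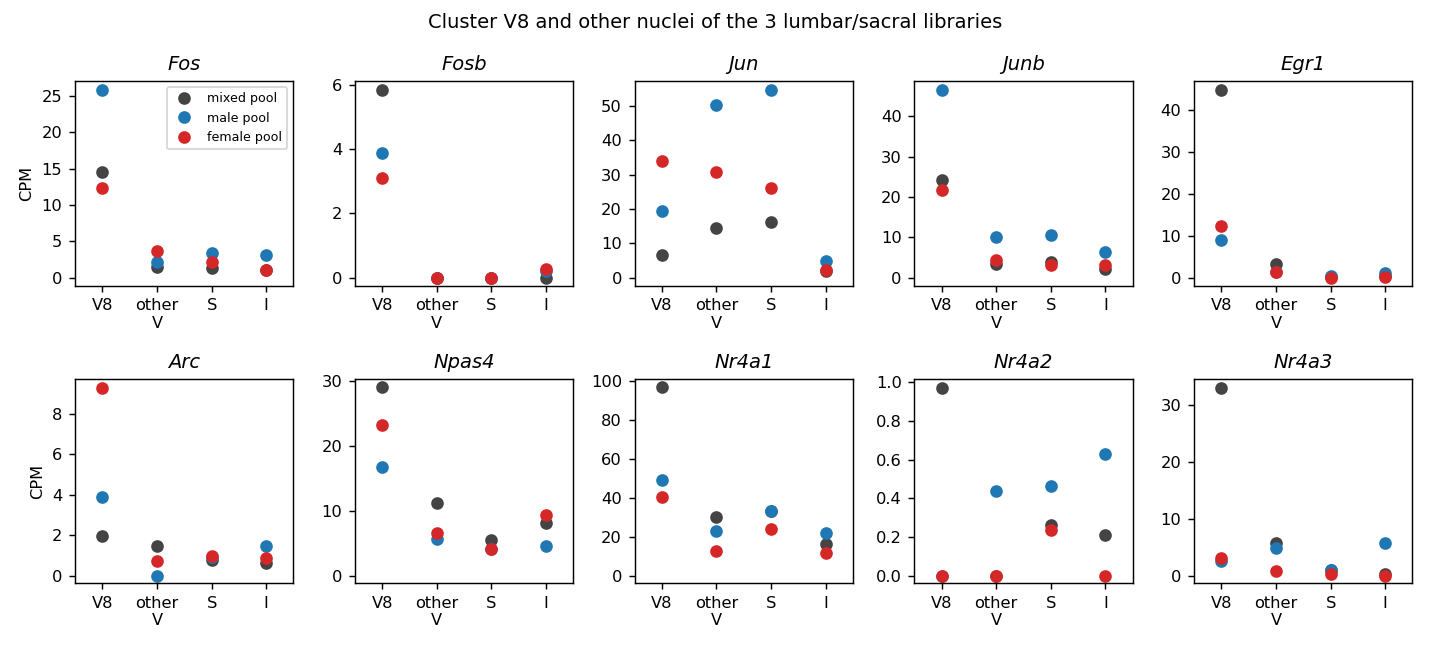
Level (CPM, linear axes that start near 0) of each gene in V8, the other visceral, the skeletal and the interneuron nuclei of the 3 lumbar/sacral libraries, 1 point per library and coloured by pool. For *Fos*, *Fosb*, *Junb*, *Egr1*, *Npas4* and *Nr4a1* the 3 V8 points lie above every other point, and for *Jun* they do not.

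Measured across all library-by-cluster sums of at least 10 nuclei with a library term (limma, log2 of CPM plus 5), 7 members had at least 10 CPM in 3 sums or more and were tested. Of these, 6 were higher in V8 than in the other visceral clusters and none was lower, where 10.7% of all 14465 genes differed in either direction and 5.81% were higher. Because *Egr1* and *Nr4a3* reach 10 CPM in only 9 and 12 sums, of which 2 and 1 are V8 sums, the count over the tested members is a description. The log2 differences were 1.92 ± 0.29 (SE) for *Junb*, 1.83 ± 0.27 for *Egr1*, 1.68 ± 0.29 for *Fos*, 1.67 ± 0.34 for *Nr4a1* and 1.37 ± 0.34 for *Npas4*, with limma adjusted p-values of 3.94e-08, 1.50e-08, 2.10e-06, 7.40e-05 and 0.00151. *Nr4a3* (0.95 ± 0.33, limma adjusted p = 0.0409) lost its call without the mixed pool's lumbar/sacral library, where it was 0.17 and the limma adjusted p 0.918, and also without cervical replicate 3 (0.0532) or lumbar/sacral replicate 3 (0.0738). *Jun* gave -0.31 ± 0.32 (limma adjusted p = 0.723). Without a filter on low levels, where 4.81% of 21418 genes were higher in V8, *Fosb* (0.85 ± 0.10) and *Arc* (0.74 ± 0.18) were called as well and *Nr4a3* was not.

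Totals and markers of other cell types were read beside the V8 values. V8 nuclei had a median total of 4966 corrected counts against 5085 in the other visceral nuclei of these libraries. Corrected totals vary little within a library, so they cannot show whether V8 nuclei differed in depth before the correction, which was not tested. Of the 463 V8 nuclei 7 were called as doublets, against 14 of 1037. Cholinergic markers summed to 413 to 450 CPM in V8 and 434 to 472 CPM in the others, and the visceral markers *Zeb2* and *Fbn2* to 986 to 1479 CPM and 1202 to 1447 CPM. Microglial markers summed to 2.91, 28.4 and 136 CPM in V8 of the mixed, male and female pools and to 5.32, 34.9 and 66.0 CPM in the other visceral nuclei. *Arc* and *Jun* in V8 followed the same order of pools, and the other members did not. Oligodendrocyte markers summed to 35.9 to 46.5 CPM and 36.8 to 59.3 CPM, astrocyte markers to 0 to 1.55 CPM and 1.94 to 3.93 CPM, and endothelial markers to 0 to 3.096 CPM and 1.94 to 3.67 CPM. The part of microglial RNA in these results was not tested.

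Related genes were read from lists. Of 28 other primary response genes, 14 were tested in V8, and 4 were higher and none lower. They were *Btg2* (log2 difference 1.65), *Gadd45b* (1.25), *Fosl2* (1.14) and *Rgs2* (1.08), with a list median of 0.51 beside 0.02 for all genes. Of 9 tested later activity-regulated genes, *Pcsk1* (1.31), which encodes a prohormone protease, *Bdnf* (1.30), a neurotrophin, and *Rasgrp1* (0.63) were higher. Among 16 upstream regulators only *Camk4* (0.92), a calcium-dependent kinase that phosphorylates CREB, differed. None of 7 tested stress and injury genes was called by limma, and 1 had an unadjusted p under 0.05. *Atf3*, an injury-induced factor too low for the test, was at 6.79 CPM in V8 of the mixed pool, where *Egr1*, *Nr4a1* and *Nr4a3* were highest, and at 0 in the other nuclei of that library and in V8 of the other pools. Its part in the V8 values was not tested.

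Outside V8 the members separated. Of 147 tests of the 7 members in 21 clusters, 48 were called, where 16% of the tests over all genes were (5.75 to 35.6% by cluster). The interneuron cluster I5 was higher than the other interneurons in 4 members (19.7% of all genes were higher there): *Nr4a1* (log2 difference 0.96 ± 0.20), *Npas4* (0.91 ± 0.20), *Junb* (0.67 ± 0.17) and *Egr1* (0.65 ± 0.16). In I5, *Npas4* ran over the 9 libraries from 5.47 CPM through a median of 15.2 to 32.6 CPM. *Arc* had its highest cluster mean there, with 3.05, 5.79 and 16.5 CPM as the lowest, median and highest library, so every library held *Arc* in I5. Of 9 tested later activity-regulated genes 5 were higher in I5 and 1 lower, among them the neurotrophin gene *Bdnf* (2.87), the secretory granule genes *Scg2* (1.61) and *Vgf* (1.52), and *Inhba* (-1.53), which encodes an activin subunit. Of 7 tested stress and injury genes *Hsph1* (1.14) and *Ddit3* (0.75) were higher in I5 as well, and their part in the I5 values was not tested.

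The skeletal clusters split by gene. S3, the gamma motor neurons, which innervate the intrafusal fibres of muscle spindles, had the highest *Jun* of all clusters, with 11.9, 41.6 and 81.2 CPM as the lowest, median and highest of 9 libraries. S1 and S2, labelled Type 3 and alpha motor neurons, ran from 4.97 through 11.8 to 21.5 CPM and from 4.83 through 11.8 to 23.8 CPM. The ranges overlapped across libraries, but with the library held, S3 exceeded the others by 1.46 ± 0.22 on the log2 scale (limma adjusted p = 1.17e-08). In the same nuclei *Nr4a1* (-1.29 ± 0.23), *Npas4* (-0.74 ± 0.23) and *Fos* (-0.66 ± 0.20) were lower than in the other skeletal clusters, which makes 4 of 7 members called where 14.5% of all genes were. *Nr4a1* was at 6.80, 14.0 and 21.3 CPM in S3 and at 27.6, 46.8 and 55.3 CPM in S1, without overlap. In S2 it ran from 20.6 to 57.2 CPM, which overlaps S3 at the low end. S1 was higher in *Nr4a1* (0.85 ± 0.23) and lower in *Jun* (-0.68 ± 0.22), where 10.9% of all genes were called.

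Among visceral clusters, V2 was higher in *Nr4a1* (1.07 ± 0.20) and *Nr4a3* (0.83 ± 0.19), where 3.71% of all genes were higher. V6 was higher in *Nr4a1* (1.21 ± 0.22), *Jun* (0.67 ± 0.20) and *Egr1* (0.59 ± 0.17), where 4.99% were, and its *Egr1* call was lost without cervical replicate 1, cervical replicate 3 or thoracic replicate 1 (limma adjusted p 0.0745, 0.0885 and 0.0637). V9 was lower in 5 members (5.38% of all genes were lower), by the most in *Nr4a1* (-1.97 ± 0.25). *Arc*, *Fosb* and *Egr1* had no count in any V9 sum, and *Nr4a1* was at 0, 2.56 and 8.56 CPM as its lowest, median and highest of 6 libraries. V9 nuclei had a median total of 9728 corrected counts and V8 nuclei one of 4971. V9 lay almost only in libraries labelled cervical and thoracic, and V8 in lumbar/sacral ones. These totals follow the library and do not compare the depth of the clusters. The *Fos* difference of V9 lost its call without thoracic replicate 2 (limma adjusted p = 0.0724). V1 and V10 were also lower in 5 members each (6.37% and 16.3% of all genes were lower). In interneurons I8 was higher in *Nr4a1* (1.06 ± 0.22) and lower in *Npas4* (-0.73 ± 0.21) and *Junb* (-0.47 ± 0.18), where 35.6% of all genes differed.

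When the clusters are put in order of a member's mean level, most neighbours cannot be separated. Over 20 neighbouring pairs per member, the mean difference in shared libraries exceeded its own SD in 2 pairs for *Egr1*, in 1 for *Fos*, *Fosb*, *Junb*, *Npas4* and *Nr4a1*, and in none for *Jun*, *Arc*, *Nr4a2* and *Nr4a3*. For each of these 6 the top step, from V8 down to the next cluster, was such a pair, over the 3 lumbar/sacral libraries (2 of them for *Egr1* and *Nr4a1*, where the next cluster was V6).

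The likeness of patterns was measured by Pearson's r over the 21 library-adjusted cluster means, which share their libraries. *Fos* and *Junb* were each other's nearest gene of all tested (r = 0.86), *Clcn5* was the second nearest to *Fos* (0.84), and *Dusp14* was close to both (0.84). *Egr1* was the third nearest to *Junb* (0.84) and itself nearest to *Fem1b* (0.90), *Gda* (0.89) and *Fam46a* (0.88). *Jun* was nearest to *Clic1* (0.91), *Glipr2* (0.89) and *Stmn4* (0.89), *Npas4* to *Mir670hg* (0.89), *Fbll1* (0.82) and *Ppm1d* (0.80), *Nr4a1* to *Rel* (0.82), *Gm45449* (0.81) and *Cd163l1* (0.80), and *Nr4a3* to *Snap25* (0.81), *Fos* (0.81) and *Gml2* (0.81). No member was among the 3 nearest of *Jun*.

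Between the 3 classes, *Jun* gave the widest gap. In interneurons it ran from 1.10 through a median of 2.28 to 6.23 CPM over the 9 libraries, in skeletal motor neurons (MNs) from 7.87 through 26.0 to 54.6 CPM and in visceral MNs from 11.9 through 31.8 to 50.7 CPM. Interneurons did not overlap either class of MN. In the fit with a library term, where 4 members passed the filter and 9 of 12 tests were called (66.1% of genes in the skeletal, 62.8% in the visceral and 50.5% in the interneuron contrast), *Jun* was lower in interneurons by -1.92 ± 0.11 on the log2 scale. *Nr4a1* was lower in interneurons (-0.64 ± 0.10) and higher in visceral MNs (0.37 ± 0.10), but without V8 nuclei the visceral difference was 0.19 with a limma adjusted p of 0.0951. *Npas4* was lower in skeletal MNs (-0.67 ± 0.09) and higher in visceral MNs (0.44 ± 0.09), and *Junb* was not called in any class. *Npas4* reached 10 CPM in only 3 class sums, the visceral sums of lumbar/sacral replicates 1 and 3 (17.1 and 11.9 CPM) and the interneuron sum of thoracic replicate 3 (13.1 CPM). It was therefore not tested, and its calls ended, when any of these libraries or V8 was left out. Since most genes were called in each contrast, the count is no result about the members.

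The share of nuclei with a count, compared within libraries with an exact test that flips the signs of the library differences (two-sided) and adjusted over 19120 genes, covers the members too low for that filter. The flips take the 9 libraries as independent, although they come from 3 pools of mice. With 3 units the smallest p of such a test would be 0.25. *Egr1* had a count in 3.63% ± 1.96 of visceral, 0.400% ± 0.306 of skeletal and 1.48% ± 1.59 of interneuron nuclei (SD, n = 9 libraries), and visceral exceeded skeletal MNs in 9 of 9 libraries (adjusted p = 0.0146 by the exact test). *Nr4a3* (3.25% ± 2.21 against 0.744% ± 0.471) and *Npas4* (6.91% ± 1.29 against 2.70% ± 0.88) did so in 9 of 9 as well, *Fos* (4.01% ± 2.97 against 1.78% ± 1.45) in 8 of 9, and *Fosb* (0.567% ± 0.408 against 0.203% ± 0.380) in 7 with 2 ties. That makes 5 members with a higher share in visceral than in skeletal MNs and none lower, where 18% of all genes were higher and 40.9% differed. Between interneurons and skeletal MNs 4 differed (35.8% of genes): *Jun* and *Nr4a1* were lower and *Egr1* and *Npas4* higher in interneurons. Between interneurons and visceral MNs *Fos*, *Fosb*, *Jun* and *Nr4a1* were lower in interneurons (34.7% of genes differed). With every nucleus thinned to 4000 corrected counts, 10 of these 13 differences were called. The others were *Fosb* between visceral and skeletal MNs (adjusted p = 0.104, exact test) and between interneurons and visceral MNs (0.0565), and *Egr1* between interneurons and skeletal MNs (0.221, higher in 7 of 9 libraries). For scale, the lowest cluster shares of *Npas4* were 0.538% in V9 and 0.789% in S3, and free RNA in the suspension, which could add to any share, was not measured.

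The levels of whole libraries followed the pool of mice in some members. Values are given in the order of the cervical, thoracic and lumbar/sacral labels. In the male pool *Fos* stood at 5.49, 5.45 and 4.51 CPM, against 1.70, 4.67 and 2.39 CPM (mixed) and 0.354, 2.07 and 2.67 CPM (female). The male values lay above all female values, and thoracic replicate 1 of the mixed pool reached into the male range. *Junb* stood at 7.03, 7.35 and 11.2 CPM in the male, 3.14, 4.79 and 4.86 CPM in the mixed and 2.20, 3.83 and 4.51 CPM in the female pool, so the male libraries were the highest 3. *Jun* was at 31.1, 33.5 and 32.1 CPM in the male, 13.3, 14.3 and 9.29 CPM in the mixed and 7.16, 33.1 and 18.7 CPM in the female pool, where the thoracic library matched the male ones.

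*Egr1* followed another order. It was at 3.86, 5.64 and 4.77 CPM in the mixed pool, above all 6 other libraries, which ran from 1.06 to 2.37 CPM. *Nr4a1* stood at 27.7, 34.1 and 31.2 CPM in mixed, 23.8, 26.6 and 27.9 CPM in male and 22.2, 20.1 and 18.9 CPM in female libraries, so the female values were the lowest 3. Female *Nr4a3*, at 0.992, 1.30 and 0.410 CPM, lay below every other library. *Npas4* was lowest on average in the male pool (4.54, 5.71 and 5.42 CPM against 5.81 to 9.63 CPM elsewhere). *Arc* ran from 0.766 to 1.44 CPM with no separation. With the cluster makeup of each library held constant, the ratio of observed to expected counts was 1.49 to 1.76 for *Junb* in the male libraries and 0.467 to 0.970 in the other 6, and 1.33 to 1.68 for *Egr1* in the mixed libraries and 0.376 to 0.944 in the others. *Hspa8*, a heat shock family gene of the stress list without a limma call between pools, reached 48.9, 71.5 and 67.5 CPM in male libraries against 14.2 to 42.8 CPM elsewhere. Of that list, limma called *Hsp90aa1* higher in the male than in the female pool in interneurons (log2 difference 0.80, limma adjusted p = 0.0353). *Hsph1* was called higher in the mixed than in the single-sex pools, in visceral MNs (0.53) and interneurons (0.52). The part of these genes in the member levels was not tested.

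**Figure D3:**
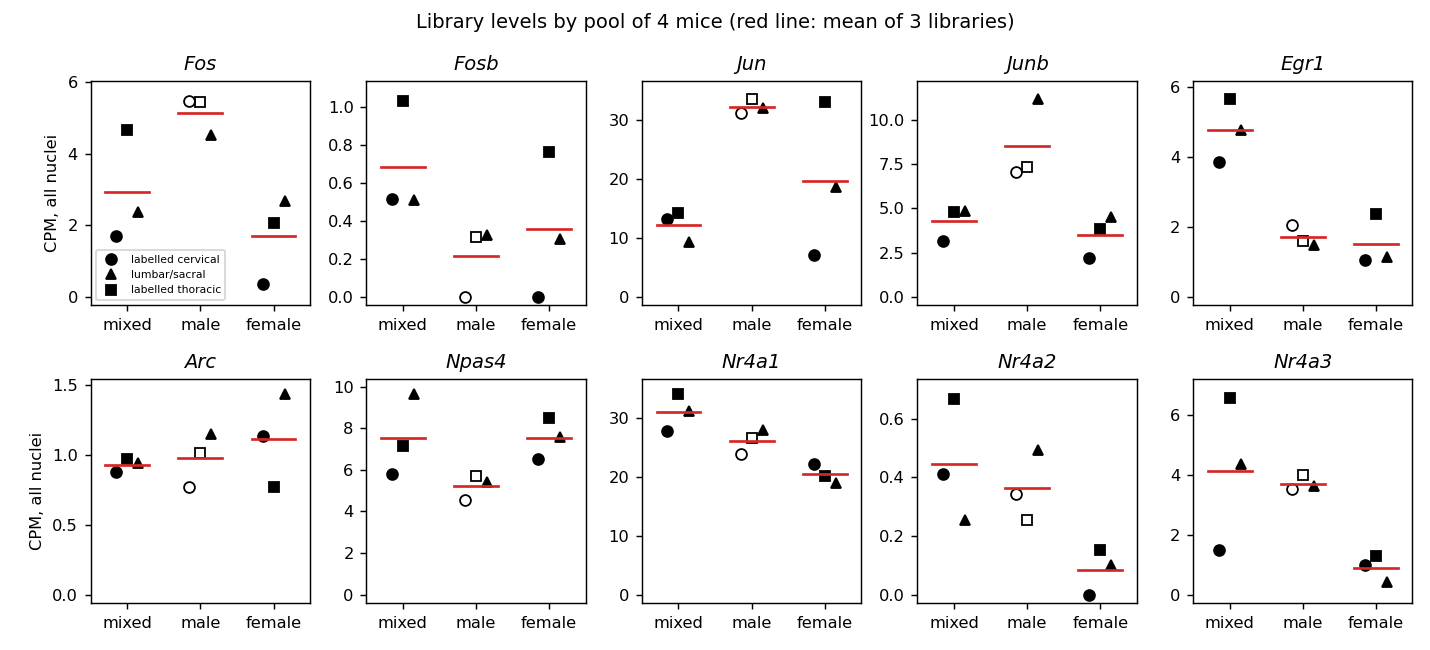
Level over all nuclei (CPM) of each gene in the 9 libraries, grouped by pool. Symbols give the labelled cord level, open symbols mark the 2 libraries whose *Hox* genes go against their labels, and red lines are means of 3 libraries. *Fos* and *Junb* are highest in the male pool and *Egr1* in the mixed pool.

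Of these members only *Jun* and *Nr4a1* passed the filter for a test between pools. Between the male and the female pool, with a term for cord level, limma called neither in 5 tests, although 3 had an unadjusted p under 0.05 (0.09% of skeletal, 0.479% of visceral and 0.449% of interneuron genes were called). The male minus female difference of *Jun* in skeletal MNs was 1.02 ± 0.27 (limma adjusted p = 0.154). Without a filter *Nr4a3* was called in interneurons, higher in the male pool by 1.01 ± 0.09 (limma adjusted p = 0.0100). That call rests on 16, 40 and 27 counts in the male and 3, 4 and 0 in the female interneuron sums (cervical, thoracic and lumbar/sacral). The shares of genes called above are those with the filter. Between the mixed and the single-sex pools, visceral *Jun* was lower by -0.98 ± 0.23 and *Nr4a1* higher by 0.58 ± 0.14 (20.3% of visceral, 5.16% of skeletal and 15.9% of interneuron genes were called), and both calls were lost when cervical replicate 1, cervical replicate 2, thoracic replicate 1, thoracic replicate 3 or any lumbar/sacral library was left out. With 1 pool of each kind, such tests measure the spread between libraries of the same mice.

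By cord level only *Jun* and *Nr4a1* could be tested. Against the mean of the other levels, the lumbar/sacral libraries gave no call in 5 tests and none at an unadjusted p under 0.05 by limma, where 4.27% of visceral, 0.01% of skeletal and 0.051% of interneuron genes were called. Differences lay between -0.10 and 0.27 on the log2 scale. Between the libraries labelled cervical and thoracic limma called no member and no gene at all (0% in each class), with no member at an unadjusted p under 0.05. The cervical minus thoracic difference of *Jun* was -0.69 ± 0.48 in skeletal and -0.62 ± 0.49 in visceral MNs, and -0.73 ± 0.51 and -0.80 ± 0.52 without both libraries of the male pool, where limma called no member either. With the pool as a block these *Jun* differences had unadjusted p-values of 0.0318 and 0.0463 in limma and adjusted ones of 0.360 and 0.553. One difference between classes did depend on level. *Junb* was higher in visceral relative to skeletal MNs in lumbar/sacral than in other libraries by 0.89 ± 0.14 (limma adjusted p = 0.00459, 5.72% of genes called), and lower in interneurons relative to visceral MNs by -1.05 ± 0.14 (limma adjusted p = 7.00e-04, 8.58% called). Visceral *Junb* was at 10.3, 19.2 and 9.95 CPM in the lumbar/sacral libraries and 0.803 to 6.83 CPM in the other 6. *Junb* passed the filter only through 3 lumbar/sacral sums (visceral in replicates 1 and 2, skeletal in replicate 2), so these calls are a description of a gene tested because it was high there. Without V8 in the visceral sums, or without either of these libraries, *Junb* no longer reached the filter, and with scaling by the median of ratios neither difference was called.

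**Figure D4:**
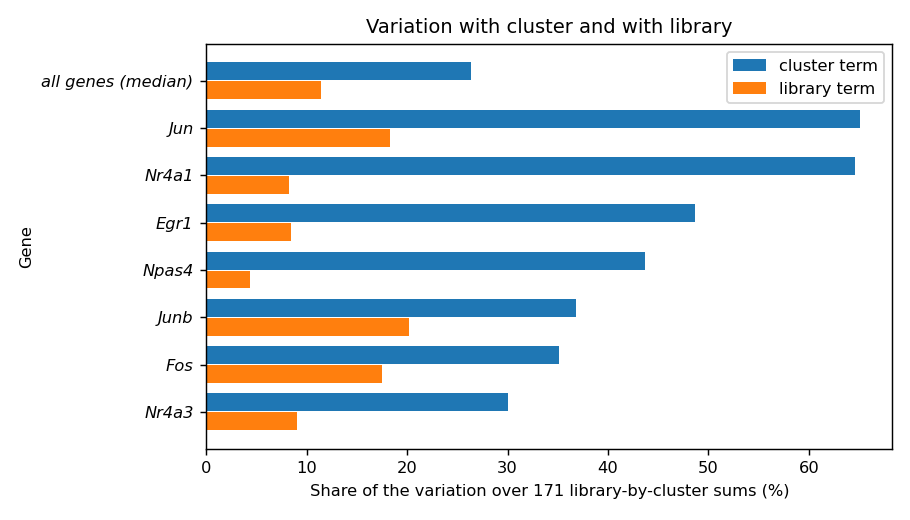
Share of the variation of log2(CPM + 5) over library-by-cluster sums that goes with the cluster term (blue) and with the library term (orange), for the 7 tested members and the median of all genes. The cluster share is the larger for every member shown, without adjustment for the larger number of clusters (21) than libraries (9). *Junb*, *Jun* and *Fos* have the largest library shares.

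Cluster and library were set side by side in a fit over these sums. The cluster term took a median of 43.7% of the variation of the 7 tested members and the library term 9.07%, beside 26.4% and 11.4% for all 14465 genes. The shares are not adjusted for the number of levels, 21 clusters and 9 libraries, and a term with more levels takes more by itself. The values for all genes are therefore the measure to read them against. *Jun* (65.1% with cluster, 18.3% with library) and *Nr4a1* (64.6% and 8.24%) followed the cluster the most. *Junb* (36.9% and 20.1%) and *Fos* (35.1% and 17.5%) had large library shares, and *Npas4* had the smallest (43.7% and 4.40%). *Nr4a3* left 61.2% to neither term.

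V4 stood apart in 1 library. It had no call in any member, but its 145 nuclei in thoracic replicate 1, of the mixed pool, were high in several, an observation chosen after the values were seen and given without a test. *Nr4a3* was at 35.2 CPM there (57 counts, in 34 nuclei) against 0 to 5.64 CPM in V4 of the other 8 libraries (7 counts in 517 nuclei). *Fos* was at 19.8 CPM against 0 to 8.46 CPM, *Fosb* at 8.66 CPM against 0 to 0.905 CPM, and *Nr4a1* at 70.5 CPM against 0 to 34.2 CPM. *Jun*, at 24.1 CPM, was within the 6.30 to 53.6 CPM of the others, and *Arc* had no count. In the other 8 visceral clusters of that library *Nr4a3* was at 0 to 14.6 CPM, *Fos* at 0 to 9.91 CPM and *Fosb* had no count, all below V4. *Nr4a1* reached 78.7 CPM and *Egr1* 22.7 CPM in another cluster there, more than the 70.5 and 11.1 CPM of V4.

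Members were found together in the same nuclei. Of 16042 nuclei, 5611 had a count of at least 1 member and 298 (1.86%) of at least 3. By cluster the share with at least 3 was 8.14% in V8, 7.26% in V2, 6.80% in V4 and 5.33% in V6, and no such nucleus was seen in V9, I7 or I8. Of the 15 nuclei with at least 5 members, 9 were V4 nuclei of thoracic replicate 1, where 36 of 145 nuclei had at least 3. In V2, 26 of the 56 such nuclei came from the library labelled cervical replicate 2, which has the highest median total of corrected counts. With thinning to 4000 corrected counts, which left out 21.9% of lumbar/sacral replicate 1, the count fell to 72 nuclei, and V8 kept 5.96% while V6, the next, had 1.38%.

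**Figure D5:**
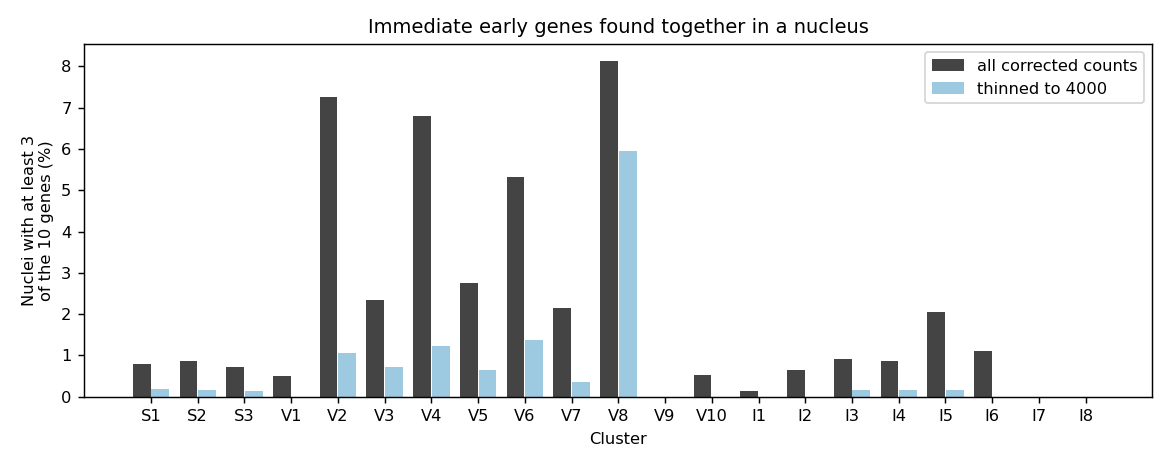
Percentage of nuclei with a count of at least 3 of the 10 genes, by cluster, with all corrected counts (dark) and after thinning every nucleus to 4000 (light). V8 has the highest bar on both scales, and the bars of V2, V4 and V6 fall below 1.5% after thinning.

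Pairs of members were compared with the number expected from their shares within each library and cluster. Of 45 pairs, 36 had an expected number of at least 3, and of these 35 were seen together more often than that, 9 by more than 2 times, with a median ratio of 1.48. *Fos* and *Fosb* shared 14 nuclei where 3.93 were expected, *Fos* and *Nr4a3* 57 where 24.3 were, *Fos* and *Egr1* 32 where 15.1 were, and *Junb* and *Nr4a3* 47 where 23.1 were. Nuclei of 1 library and cluster still differ in depth, and its part in these ratios was not tested.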

How the data were processed

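Reads of GFP+ nuclei were aligned by the authors to GRCm38 (mm10 per the labels), introns included, using Cell Ranger 3.1.0. The authors then removed outlying and non-cholinergic nuclei and normalized with SCTransform in Seurat. After anaesthesia with tribromoethanol and decapitation, the authors cut the spinal column at hip level and flushed the cord out with PBS from the caudal end. Cords were frozen before nuclei were isolated. The part of this handling in the levels, those of V8 included, was not tested. The deposited values were read as the authors' SCTransform-corrected counts, from the stated methods and because totals per nucleus vary little within a library, since no header names the unit. The deposited values were thus treated as a model score that the authors made with SCTransform, not as molecules, and no count model was run. Cluster and class are the authors' labels.

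Sums per library and class or cluster (10 nuclei or more) were converted to CPM. Genes reaching 10 CPM in 3 or more sums were tested on log2(CPM + 5) by limma 3.58.1 (R 4.3.3, trend on), and a call was a Benjamini-Hochberg adjusted p under 0.05 over all genes. Class and cluster fits had a library term, pool fits a cord level term. Shares of nuclei were compared by exact sign-flip tests over libraries (512 flips, smallest p 0.00391), adjusted over the 19120 genes with a count in at least 20 nuclei in place of the members alone, a change made after the plan. Doublets were called with Scrublet in scanpy 1.11.5 (164 nuclei, 1.02%) and left in. Thinning used the seed 1 and acted on corrected counts, so depth before the correction was not held. The fits were tested on simulated data with 3 set-ups of 200 changed genes among 21457 (raised only, both directions, and both directions without the highest-expressed genes), the later ones added because the first gave more false calls than aimed at. The simulated sums were drawn independently from a common profile, without library or pool effects or other differences between clusters. The rates that follow therefore need not hold for the real sums. In the V8 fit 35.2 to 39.3% of 2-fold and 75 to 97.8% of 4-fold changes were recovered, with 0 to 0.877% of calls false. In the class, region, pool and class difference fits 5.41 to 15.7% of calls were false, above the 5% aimed at in every set-up, so calls there are less certain than their adjusted p says.

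The members and lists were chosen with earlier results of these data known, and all members are described. From the lists, the genes named were called, at most 4 per list and comparison, those with the largest change. The exceptions are *Atf3*, too low for the test, and *Hspa8*, not called between pools, which are named for their levels. List genes called in some other comparisons are not named. Likeness names the 3 nearest genes per tested member. The alternatives were other pseudocounts, scalings, filters, cluster sums of at least 30 nuclei, thinning, and leaving out doublets or each library. Others were added after seeing the data: a filter of 1 CPM, no V8 nuclei, and neither of the libraries labelled cervical and thoracic replicate 2. Libraries of a replicate number come from the same mice, so the numbers pair the samples. Their deviations from level means correlated at 0.67 to 0.92 in replicate 1, 0.34 to 0.75 in replicate 2 and -0.22 to 0.85 in replicate 3. P-values thus rest on 3 pools. V4 in thoracic replicate 1 was singled out after its values were seen.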

Additional observations from a re-analysis of the deposited data

Results flagged for a closer look

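Of the 4 members tested, *Junb* was called for a difference between classes that depended on the cord level. It entered the test only through 3 lumbar/sacral sums, where it was high, and the calls ended without lumbar/sacral replicate 1 or 2, without V8 and with scaling by the median of ratios. Visceral minus skeletal *Junb* was higher in lumbar/sacral than in other libraries by 0.89 on the log2 scale, and interneuron minus visceral *Junb* differed by -1.05. Visceral *Junb* exceeded skeletal *Junb* in 3 of 3 lumbar/sacral libraries (10.3, 19.2 and 9.95 CPM against 3.90, 10.6 and 3.07 CPM). In the same libraries V8, present almost only there, was at 24.2, 46.5 and 21.7 CPM and the other visceral nuclei at 3.39, 10.0 and 4.40 CPM.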

How the results depend on the processing

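Calls between classes went from 9 to 3 when every sum had to hold at least 10 corrected counts, to 16 with no filter or with one of 1 CPM, and to 5 without V8, and ran from 5 to 9 when single libraries were left out. Calls between clusters (48) fell to 0 under at least 10 counts in every sum, since no member then remained, and ran from 43 to 48 without single libraries. They fell to 36 with sums of at least 30 nuclei and to 39 without cervical and thoracic replicate 2. Calls between the male and female pools went from 0 to 1 with no filter or with 1 CPM. With no filter the call was *Nr4a3* in interneurons, higher in the male pool by 1.01. Calls between the mixed and single-sex pools (2) became 1 with no filter, 4 with 1 CPM and 0 without cervical and thoracic replicate 2, and ran from 0 to 3 without single libraries. The class differences by level or pool (2) fell to 0 with scaling by the median of ratios, with at least 10 counts in every sum and without V8, and ran from 0 to 3 without single libraries. They were 0 without lumbar/sacral replicate 1 or 2, where *Junb* did not reach the filter. The 13 differences in shares became 7 without cervical and thoracic replicate 2 and ran from 10 to 14 without single libraries. Nuclei with at least 3 members (298) became 72 after thinning and 9 when 2 counts were asked for. The median library share of variation ran from 7.15 to 10.2% without single libraries. With a replicate block for the pairing by pool, calls by cord level stayed at 0 in both comparisons, with *Jun* under an unadjusted p of 0.05 in 2 of 5 cervical against thoracic tests, and the fits between classes, clusters and pools already hold a library or a level term. The low counts of *Fosb*, *Nr4a2* and *Arc* limit what can be seen of them in single libraries.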
